A study of Mus musculus with 12 samples.

Results

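The 40 genes described here form the S phase set of CD8+ T cells: the subunits of the replicative helicase, the factors that load and fire it, the DNA polymerases, the sliding clamp and its loaders, the enzymes that finish new strands and supply deoxynucleotides, and the chromatin, repair, cyclin and E2F genes that work beside them. Members were taken by gene symbol from the 55291 symbols of the deposited count table, and all 40 were found. RNA of 12 bulk libraries was sequenced, 3 per group, from CD8+ T cells that male wild-type mice gave from spleen and lymph nodes. The naive group was lysed fresh on day 0. The other 3 groups share 2 days of activation, with anti-CD3 bound to the plate and CD28 in solution, and 1 day of expansion with recombinant mouse interleukin 2 (rmIL-2). On day 3 these cells went for 24 h into media, into a gel of bovine collagen (Nutragen) at 2 mg/mL or into a gel of rat tail collagen (RatCol) at 2 mg/mL, and RNA was taken on day 4. The labels give no age and do not say which mouse or culture a library came from, so the p-values measure the spread between these libraries, which may be technical.

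In a dividing cell, MCM2-7 rings are loaded at origins before S phase and are turned into running helicases when CDC45 and GINS join them. Polymerases then copy both strands on the PCNA clamp, while ribonucleotide reductase and thymidylate synthase make the DNA precursors. Most of these genes are known targets of E2F transcription factors, which are held back by pocket proteins in resting cells, and CD8+ T cells are known for very fast division after activation.

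The libraries held between 28483064 and 53138362 counts. The share of counts in rRNA genes was 3.96 to 5.67% in naive and media libraries and higher in bovine collagen library 2 (11.9%) and rat tail collagen libraries 1 and 3 (11.0% and 13.2%), so results are also given without these 3. T cell genes were high in every library: the 10 genes of T cell identity summed to 4965 to 5878 CPM (counts scaled to a common library size) in naive cells, 3876 to 4334 in media, 3911 to 4251 in bovine and 2975 to 3184 in rat tail collagen. In rat tail collagen against media, 6 of these 10 were lower and 1 was higher, where 28.7% of all genes tested were lower and 29.7% higher. Markers of other cells moved with that gel too, in both directions within most lists. Of the 7 myeloid markers 4 passed the filter on low counts: Cd68 and Cd14 were higher and Itgam and Fcgr3 lower. Their sum, mostly Cd68, was 18.1 to 25.3 CPM in that gel and 10.1 to 11.2 CPM in media, with Lyz2 and Csf1r under 0.04 CPM in each rat tail collagen library. Of the 6 stromal markers 3 passed the filter. Col1a1 (mean 4.29 against 0.311 CPM, log2 change 3.76) and Fn1 (1.71 against 0.161 CPM, 3.37) were higher, while Pecam1, which T cells also express, was lower (66.8 to 72.9 against 130.1 to 146 CPM, -0.97) and made up most of the sum of 72.5 to 78.7 against 131 to 147 CPM. Col3a1 was at 0 to 0.0168 CPM in the rat tail collagen libraries. Of the 6 markers of NK, gamma-delta and CD4 T cells 5 passed the filter, with Zbtb7b and Klrb1c higher and Trdc lower. They summed to 75.6 to 87.0 against 38.0 to 55.2 CPM, led by Zbtb7b, with Ncr1 at 0 to 0.150. Of the 6 B cell markers 3 passed, with Cd79a higher and Cd79b lower, and the sum, nearly all Ighm reads, ranged from 712 to 1038 against 895 to 1017 CPM. Of the 6 red cell markers Alas2 alone passed, higher at a mean of 1.44 CPM against no reads in media, and the sum was 1.42 to 2.69 against 0.0855 to 0.363 CPM. Their part in the results below was not tested.

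The whole set was higher in media than in naive cells. These groups differ in activation, expansion, culture and day, which the design cannot tell apart. In media against naive cells all 40 members were higher at an adjusted p under 0.05 in edgeR's quasi-likelihood test with Benjamini-Hochberg adjustment over 18610 genes, where 31.6% of all genes tested were higher and 29.2% lower. The median log2 change was 3.01 for the members and -0.0034 for all genes tested. Summed over the set, naive libraries held 1040, 1055 and 1083 CPM and media libraries 6309, 6036 and 6002. The groups stand far apart. In bulk RNA, fewer cells in S phase and less RNA of these genes per cell cannot be told apart, here and in all results below.

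Members differed widely in where they started. Pclaf, which encodes a small PCNA-binding protein, had 4.44, 3.88 and 3.11 CPM in naive and 326, 303 and 331 CPM in media libraries, a log2 change of 6.45 (SE 0.14, adjusted p = 1.63e-09). Esco2, the acetyltransferase that sets cohesion during replication, went from 1.47, 1.29 and 0.579 to 76.9, 80.3 and 97.1 CPM, a log2 change of 6.32. At the other end stood Cdt1, a licensing factor that loads MCM rings: 34.1, 30.3 and 34.8 CPM in naive and 65.1, 65.5 and 69.6 in media libraries, a log2 change of 1.08 (SE 0.076, adjusted p = 3.22e-06). Even for Cdt1 the lowest media library was well above the highest naive one.

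By role, the median log2 gain was 4.46 for the 3 repair genes, 4.06 for the 6 loading and firing genes, 4.03 for the 5 nucleotide supply genes and 3.77 for the 4 cyclin and E2F genes. It was 3.36 for the 4 chromatin and cohesion genes, 2.87 for the 4 polymerase genes, 2.37 for the 5 clamp and loader genes, 2.13 for the 3 strand maturation genes and 1.94 for the 6 helicase subunits. The helicase subunits, with the smallest median gain, were among the genes that naive cells already held. The naive level is itself part of the gain, and the 2 did not always go together. Rrm2 and E2f2 had 3.03 and 2.80 CPM per kb in naive cells and were 54.7-fold and 20.8-fold higher in media. Rfc3 had 1.88 CPM per kb and was 5.56-fold higher. Per kilobase of exon, Pcna led the set in naive cells with 52.1 ± 1.35 CPM per kb (SD, n = 3), followed by Mcm4 (24.5 ± 1.07), Mcm6 (20.6 ± 0.553) and Mcm3 (18.5 ± 1.08). In media the order was led by Rrm2 (166 ± 6.70 CPM per kb), the small subunit of ribonucleotide reductase, ahead of Pcna (126 ± 9.46), Mcm5 (85.8 ± 8.45) and Mcm4 (80.4 ± 1.75), of which the last 2 overlap within their SD. Gins2 was the lowest in media at 5.43 ± 0.974 CPM per kb, next to Exo1 at 5.74 ± 0.239, which again overlap.

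Promoter sequence shows what part of the set shares besides function. The RefSeq promoter windows of GRCm38.p6, from 250 bases before to 50 after each start, covered 33 of the 40 members in 39 windows and 27025 symbols in 32851 windows over all genes. The E2F element was searched as TTTCCCGC, TTTCGCGC, TTTGCCGC or TTTGGCGC on both strands. It was present for 12 of the 33 members (36.4%), among them Mcm3, Mcm5, Mcm6 and Mcm7 of the helicase, against 2.61% of all symbols and 5.88% of the 17 genes of a G2 and mitosis list with a window. The cell cycle homology region (CHR), searched as TTTGAA on both strands, was found for 12.1% of the members, 70.6% of the G2 and mitosis list and 20.2% of all symbols. CCAAT, a short box bound by NF-Y and common in promoters, was found for 60.6%, 88.2% and 41.1%. None of the 5 nucleotide supply genes, Rrm2 among them, held the E2F letters. A match is a description and not a site, and no match says only that these letters are not in the window.

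**Figure D1:**
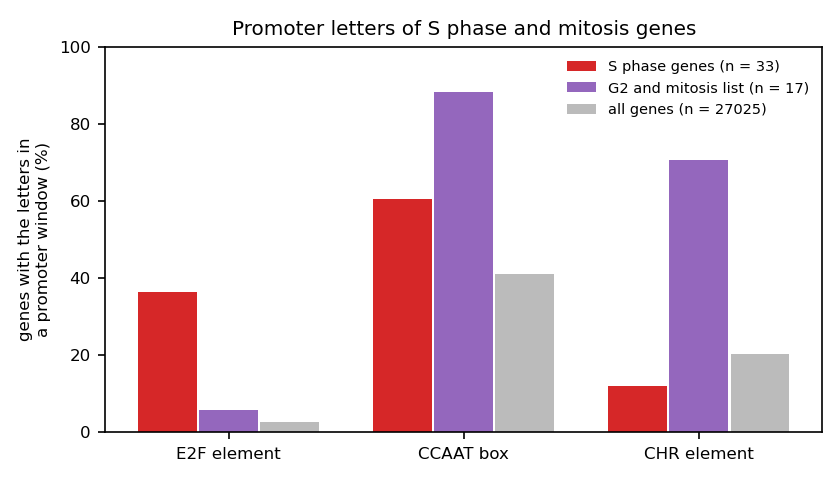
Share of genes with a RefSeq promoter window that holds the letters of the E2F element, the CCAAT box or the CHR element (y axis, percent of genes) for the S phase genes, a G2 and mitosis list and all genes. The E2F letters were found in 36.4% of S phase genes and 2.61% of all genes, and the CHR letters in 70.6% of the G2 and mitosis list.

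The stretches upstream are shown for the 6 members with E2F letters that lie wholly before the RefSeq start of the window. By the gene positions of GENCODE M21, which begin further upstream for Mcm7, Cdc6 and Rfc3, the stretches of these genes lie inside the gene. The 6 members include helicase partners and other replication genes that moved by very different amounts in rat tail collagen. Each stretch is written 5′ to 3′ on the strand of its gene, with the E2F letters of either strand in capitals, at chr1:128359724-128359836 (minus strand) for Mcm6, chr8:75109335-75109388 (plus) for Mcm5, chr5:138172020-138172069 (minus) for Mcm7, chr11:98907992-98908041 (plus) for Cdc6, chrX:93632265-93632314 (minus) for Pola1 and chr5:151651209-151651239 (minus) for Rfc3, all in GRCm38.p6.
Mcm6: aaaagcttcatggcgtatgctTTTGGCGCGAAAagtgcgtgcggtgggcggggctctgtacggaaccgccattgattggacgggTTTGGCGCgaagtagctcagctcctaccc
Mcm5: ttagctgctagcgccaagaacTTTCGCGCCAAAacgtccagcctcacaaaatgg
Mcm7: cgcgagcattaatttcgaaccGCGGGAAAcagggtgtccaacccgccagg
Cdc6: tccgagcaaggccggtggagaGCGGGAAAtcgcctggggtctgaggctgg
Pola1: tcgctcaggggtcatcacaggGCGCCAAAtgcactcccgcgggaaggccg
Rfc3: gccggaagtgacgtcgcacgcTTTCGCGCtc

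The comparison of rat tail collagen with media asks what 24 h in that gel went with. Of the 40 members 32 were lower, 1 was higher and 7 did not pass the test, where 28.7% of the 19392 genes tested were lower and 29.7% higher. The median log2 change was -0.60 for the members and -0.011 for all genes tested, and 39 of 40 members had an estimate below 0. Summed over the set, rat tail collagen libraries held 3688, 4179 and 4040 CPM against 6002 to 6309 in media. All 3 lie below media and above naive libraries. Members with E2F letters in their window had a median of -0.71 (n = 12, -1.11 to -0.14) and those without -0.51 (n = 21, -1.43 to 0.22), which overlap. The changes were not even: 4 members had a log2 change of -1 or below, 19 lay between -1 and -0.5, and 17 lay above -0.5. With the 3 libraries rich in rRNA left out, 22 members were lower and 0 higher, and Mcm2, Cdc45, Prim1, Fen1, Rpa2, Chaf1a, Esco2, Rad54l, Brca1, Ccne1 and Ccne2 were no longer called. That setting has 1 library of rat tail collagen, which is assumed to vary like the libraries of the other groups. Calls over all genes tested fell in that setting as well. Its counts, here and below, therefore cannot be read beside the 28.7% and 29.7% above. The estimates of the genes no longer called kept their direction, with Chaf1a at 0.27, Rad54l at -0.064 and the others from -0.24 (Ccne1) to -0.57 (Esco2).

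**Figure D2:**
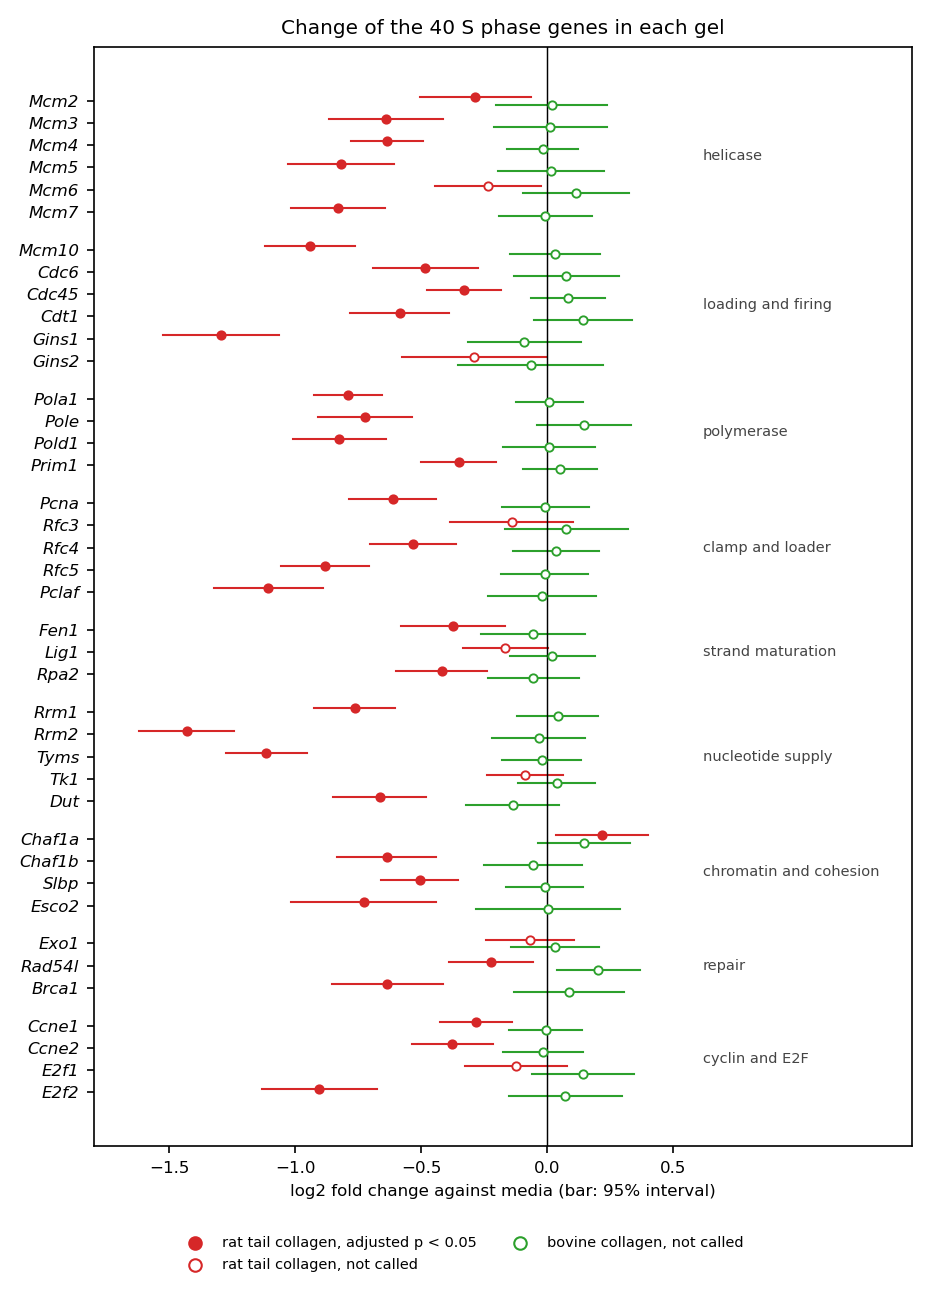
Log2 fold change against media (x axis) of each of the 40 genes, grouped by role, in rat tail collagen (red) and bovine collagen (green), with 95% intervals from the fit over the 9 day 4 libraries. Filled points are called at an adjusted p under 0.05: 32 genes are lower and 1 higher in rat tail collagen, and no gene is called in bovine collagen, where all estimates lie between -0.14 and 0.20.

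Of the 6 subunits of the MCM2-7 helicase, which in the working ring stand in equal number, 5 were lower in rat tail collagen. Mcm7 had a log2 change of -0.83 and Mcm5 of -0.82, Mcm3 and Mcm4 of -0.64 each, and Mcm2 of -0.28 (adjusted p = 0.0297). The Mcm2 call was lost on leaving out media library 1 (adjusted p = 0.0809), media library 2 (0.0760), rat tail collagen library 1 (0.103) or 2 (0.0806), scaling by library totals (0.106) or filtering at 1 CPM (0.0669). Mcm6 did not pass the test at -0.23 (SE 0.096, adjusted p = 0.0534), and it did pass without media library 3 (-0.31, 0.0225), without rat tail collagen library 3 (-0.28, 0.0466), with no filter (-0.29, 0.00757) and with all 12 libraries in 1 fit (-0.23, 0.0443). Mcm5 (chr8:75109569-75128439 in GRCm38) had 381, 331 and 316 CPM in media and 177, 209 and 200 in rat tail collagen. Mcm6 (chr1:128331590-128359664) had 344, 318 and 286 CPM in media and 250, 272 and 289 in rat tail collagen. For Mcm5 the groups stand well apart, while for Mcm6 the highest rat tail collagen library reached above the lowest media library, although both genes hold the E2F letters shown above.

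Among the genes that load and fire the helicase, 5 of 6 were lower. Gins1, a subunit of the GINS complex that joins the running helicase (chr2:150905400-150931280), had 20.0, 17.0 and 15.5 CPM in media, 17.8, 15.5 and 16.1 in bovine collagen and 6.88, 7.07 and 7.60 in rat tail collagen. All 3 rat tail collagen libraries lay below every other day 4 library, and the log2 change against media was -1.30 (SE 0.11, adjusted p = 1.40e-06). Mcm10, a scaffold of the firing helicase, changed by -0.94, Cdt1 by -0.59, the loader Cdc6 by -0.48 and Cdc45 by -0.33. Gins2, of the same complex as Gins1, was at -0.29 (adjusted p = 0.0778) and passed without media library 3 (-0.42, 0.0116), with no filter (-0.34, 0.00555) and with offsets for GC content and length (-0.38, 0.0186). Gins2 shares 67.3% of its exon bases with Gse1 on the other strand, and since the strand setting of the counting is not given in the sources used here, its reads cannot be told from those of Gse1.

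All 4 genes of polymerase subunits were lower. Pold1, the catalytic subunit of polymerase delta, changed by -0.83 (SE 0.084, adjusted p = 7.58e-06), with 146, 136 and 128 CPM in media, 69.1, 80.4 and 83.2 in rat tail collagen and 49.2, 46.0 and 54.1 in naive libraries. Its rat tail collagen libraries thus stood nearer to naive than to media cells. Pola1 of the priming polymerase alpha changed by -0.79, Pole, the catalytic subunit of polymerase epsilon, by -0.72 and the primase Prim1 by -0.35.

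Of the clamp and its loaders 4 of 5 were lower. The clamp itself, Pcna, had 329, 294 and 286 CPM in media, 323, 294 and 289 in bovine collagen and 187, 205 and 207 in rat tail collagen, a log2 change of -0.61 (SE 0.079, adjusted p = 4.75e-05). Its partner Pclaf changed by -1.11, the clamp loader subunits Rfc5 by -0.88 and Rfc4 by -0.53, and Rfc3 did not pass at -0.14 (95% interval -0.39 to 0.10, adjusted p = 0.301). The 3 small loader subunits among the members thus spread from -0.14 to -0.88. The pseudogene Pcna-ps2 held 10926 counts over the 12 libraries beside 114078 for Pcna, so that reads may be split between them, and Rfc4 shares 12.7% of its exon bases with the more abundant Eif4a2 on the other strand.

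Of the 3 strand maturation genes, Rpa2 of the single-strand binding complex changed by -0.42 and the flap nuclease Fen1 by -0.37. Lig1, the ligase that joins Okazaki fragments, had 264, 259 and 249 CPM in media and 209, 231 and 253 in rat tail collagen. These ranges overlap, and the log2 change of -0.17 did not pass (adjusted p = 0.0854). It passed without rat tail collagen library 3 (-0.23, 0.0257) and with offsets for GC content and length (-0.26, 0.00442). Fen1 shares 78.8% of its exon bases with the antisense transcript Gm10143, which held 0.212% as many counts.

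Nucleotide supply held the largest change of the set. Rrm2 (chr12:24708241-24714146) had 451, 447 and 481 CPM in media, 420, 451 and 479 in bovine collagen, 161, 188 and 165 in rat tail collagen and 9.08, 8.32 and 7.79 in naive libraries. Rat tail collagen libraries lay far below both other day 4 groups and far above naive cells. The log2 change against media was -1.43 (SE 0.086, adjusted p = 1.37e-07). Tyms, thymidylate synthase, changed by -1.11 (SE 0.073, adjusted p = 2.57e-07), from 87.5, 90.0 and 94.0 to 38.5, 44.5 and 43.2 CPM. Rrm1, the large reductase subunit, changed by -0.76 and Dut, which removes dUTP, by -0.66. Tk1, the thymidine kinase that salvages thymidine, did not pass: 84.0, 76.1 and 79.9 CPM in media and 74.2, 80.8 and 72.2 in rat tail collagen, a log2 change of -0.09 (95% interval -0.24 to 0.065, adjusted p = 0.303). Tyms was thus called lower, while Tk1 overlapped with the media libraries. This did not extend to all salvage enzymes, as the salvage kinase Dck, counted below, changed by -1.07.

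**Figure D3:**
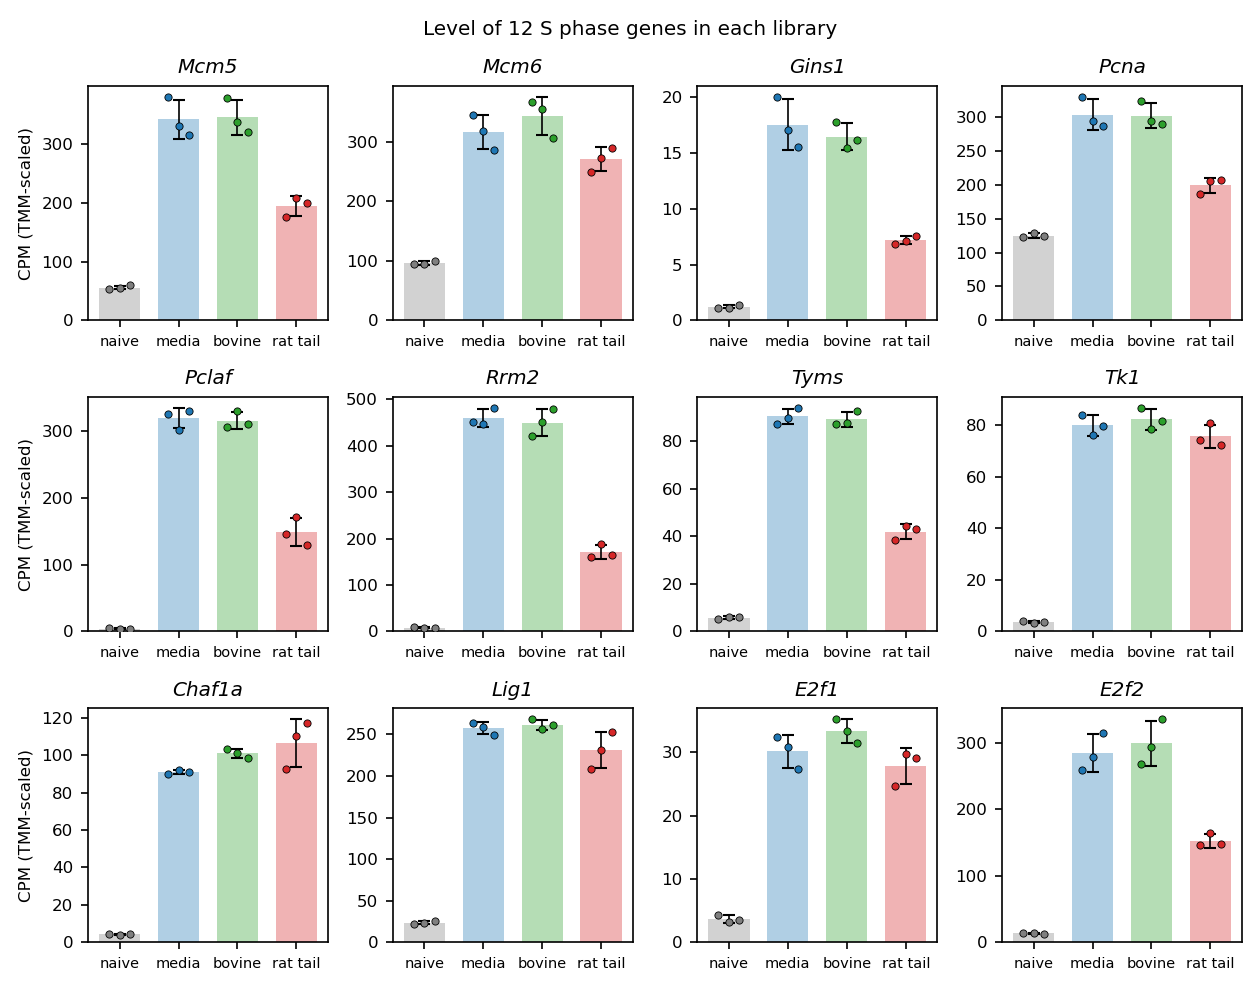
Level of 12 of the 40 genes (y axis, CPM after TMM scaling over the 12 libraries) in naive cells, media, bovine collagen and rat tail collagen. Bars are means of 3 libraries, error bars the SD and points the libraries. Rrm2 is at 447 to 481 CPM in media and at 161 to 188 in rat tail collagen, whereas Tk1 and Lig1 overlap between media and rat tail collagen.

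Of the chromatin and cohesion genes 3 of 4 were lower: Esco2 by -0.73, Chaf1b, the middle subunit of the chromatin assembly factor CAF-1, by -0.64, and Slbp, which binds histone mRNA, by -0.51. Chaf1a, the large CAF-1 subunit (chr17:56040439-56072289), was the 1 member called higher. It had 89.7, 92.3 and 90.9 CPM in media, 103, 101 and 98.3 in bovine collagen and 92.4, 110 and 117 in rat tail collagen. Rat tail collagen library 1 lay at the level of the highest media library, and the log2 change was 0.22 (SE 0.084, adjusted p = 0.0422). The call was lost without media library 1 (adjusted p = 0.103), media library 2 (0.0793), media library 3 (0.0875), rat tail collagen library 2 (0.130) or rat tail collagen library 3 (0.157), and likewise with library totals (0.27, 0.0503), no filter (0.17, 0.162) and the 6 libraries alone (0.23, 0.0585), and with offsets for GC content and length the change was 0.045 (0.627). Chaf1a shares 52.5% of its exon bases with Ubxn6 on the other strand.

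Of the repair genes, Brca1 of homologous recombination changed by -0.63. Rad54l, a motor protein of the same pathway, changed by -0.22 (adjusted p = 0.0247), a call that was lost without media library 2 (0.0713), rat tail collagen library 1 (0.108) or 3 (0.0883), with library totals (0.265), with a filter at 1 CPM (0.0718) or with the 6 libraries alone (0.0549). The nuclease Exo1 did not pass at -0.07 (95% interval -0.24 to 0.11, adjusted p = 0.487). Among the regulators of S phase entry, the activator E2f2 had 258, 279 and 315 CPM in media and 146, 165 and 148 in rat tail collagen, a log2 change of -0.90 (SE 0.10, adjusted p = 1.95e-05). These groups do not overlap. The second activator, E2f1, had 32.4, 30.8 and 27.3 against 24.7, 29.7 and 29.1 CPM, which overlap, and did not pass at -0.12 (adjusted p = 0.271), but did with offsets for GC content and length (-0.41, 8.71e-04). The cyclins that drive CDK2 were both lower, Ccne2 by -0.38 and Ccne1 by -0.28, the latter not with library totals (-0.23, 0.0846). On the other strand, Ints8 shares 17.4% of the exon bases of Ccne2, Lrrc41 15.4% of those of Rad54l and Wsb2 10.7% of those of Rfc5.

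Changes within a pair of genes can be read without scaling for library size, as the ratio of their counts in each library. Effects of GC content and length that differ between libraries remain in such a ratio. With offsets for them the change in rat tail collagen against media went from 0.22 to 0.045 for Chaf1a and from -0.12 to -0.41 for E2f1. These pairs were picked after the values had been seen, so the ratios are a description with no test. Rrm2 had 1.11, 1.14 and 1.22 counts per count of Rrm1 in media, 1.01, 1.09 and 1.19 in bovine collagen and 0.707, 0.735 and 0.738 in rat tail collagen. The small reductase subunit was therefore lower against the large one in each rat tail collagen library. Tyms per Tk1 was 1.04 to 1.18 in media and 0.519 to 0.598 in rat tail collagen, Gins1 per Gins2 was 0.760 to 0.847 and 0.365 to 0.412, and Mcm5 per Mcm6 was 1.04 to 1.11 and 0.692 to 0.770. Chaf1b per Chaf1a was 0.685 to 0.747 in media, 0.607 to 0.622 in bovine collagen and 0.361 to 0.411 in rat tail collagen. All of these rat tail collagen values lay outside the media range. The counts of Gins2 and Chaf1a may hold reads of Gse1 and Ubxn6, so that the ratios with them may not be those of the named genes alone. Ccne2 per Ccne1 did not separate the groups, with 0.574 to 0.641 in media and 0.528 to 0.609 in rat tail collagen.

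**Figure D4:**
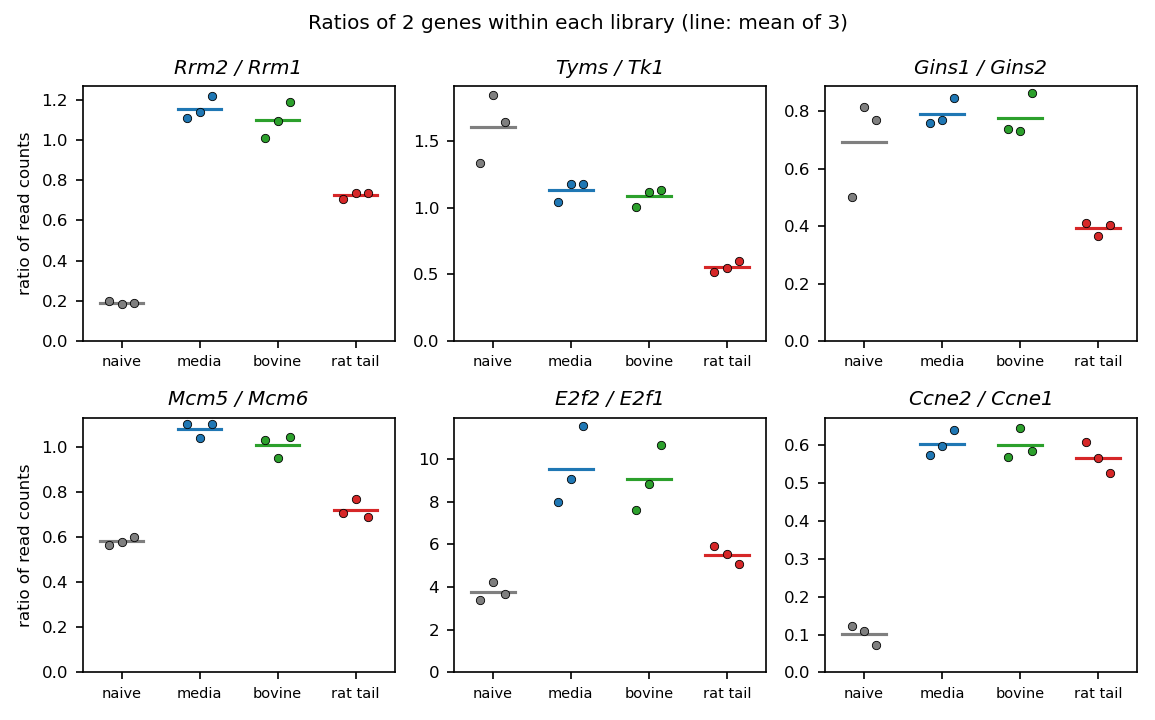
Ratio of the read counts of 2 genes in each library (y axis, counts per count) for 6 pairs, by group, with points for libraries and a line for the mean of 3. Rrm2 per Rrm1 is 1.11 to 1.22 in media and 0.707 to 0.738 in rat tail collagen, whereas Ccne2 per Ccne1 overlaps between these groups.

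Each member can also be placed on the scale from its naive mean (0%) to its media mean (100%), a description that shares the media and naive libraries with the tests above. In rat tail collagen the median member stood at 58.4%, with 12 members under 50% and 8 at 80% or more. The lowest means were those of Pold1 (22.3, 35.2 and 38.5% in the 3 libraries), Cdt1 (15.3, 40.2 and 48.7%), Rrm2 (33.8, 39.9 and 34.8%) and Gins1 (34.7, 35.9 and 39.1%), whose libraries overlap. The highest means were those of Tk1 (94.4%), Exo1 (95.8%) and Chaf1a (118%). In bovine collagen the members stood between 88.6% (Dut) and 121% (Cdt1), with a median of 101%. No library was taken at the transfer on day 3, so a fall in the gel cannot be told from a smaller rise than in media. Against naive cells all 40 members were higher in rat tail collagen in edgeR's quasi-likelihood test, where 36.5% of the 19449 genes tested were higher and 35.4% lower. The log2 changes ran from Cdt1 at 0.44 (SE 0.10, adjusted p = 0.00287) to Esco2 at 5.55, with a median of 2.42 beside -0.0031 for all genes. This comparison shares its naive libraries with that of media and its rat tail collagen libraries with those of the gels. The order by level changed as well. Pcna led the set in rat tail collagen at 83.1 ± 4.65 CPM per kb, ahead of Rrm2 at 61.9 ± 5.31 and Mcm6 at 57.9 ± 4.27, of which the last 2 overlap within their SD.

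**Figure D5:**
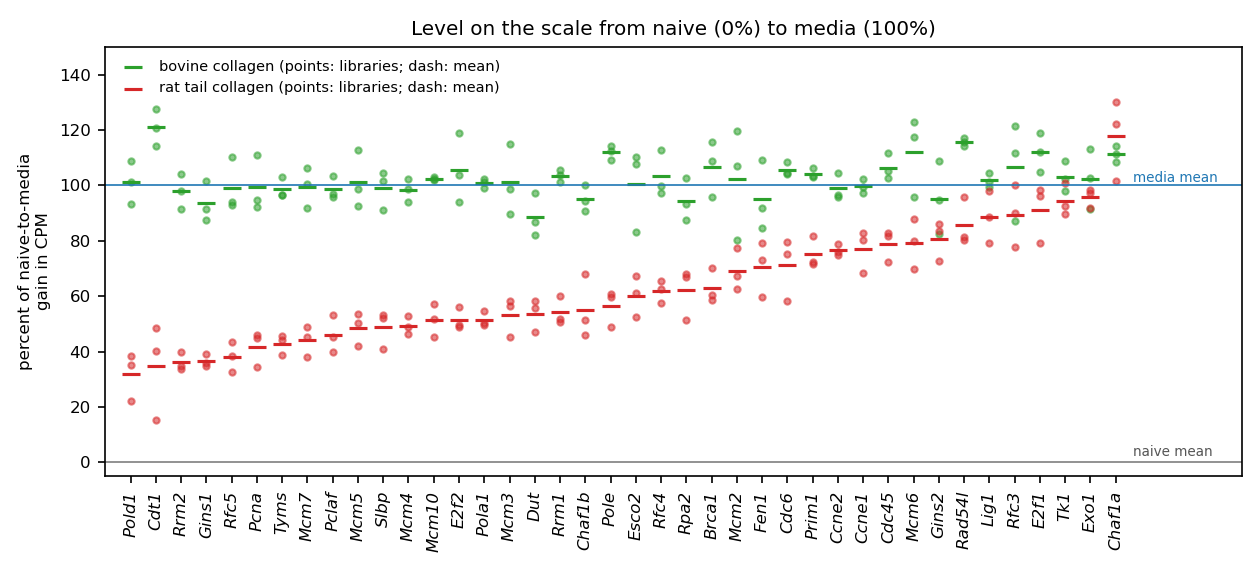
Level of each of the 40 genes on the scale from the mean of naive libraries (0%) to the mean of media libraries (100%, y axis) in bovine collagen (green) and rat tail collagen (red), with points for libraries and dashes for means, ordered by the rat tail collagen mean. Rat tail collagen means run from 32.0% for Pold1 to 118% for Chaf1a, and bovine collagen means from 88.6% to 121%.

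Bovine collagen against media asked the same of a gel of other origin at the same concentration. No member was called, where 0.0206% of all genes tested were called in either direction by edgeR's quasi-likelihood test, 4 genes in all, and limma-voom and DESeq2 called no member either. At an unadjusted p under 0.05 in edgeR's test there was 1 of the 40 members, Rad54l, beside 810 of all 19392 genes tested. Rad54l had 89.7, 90.4 and 87.0 CPM in media and 104, 101 and 103 in bovine collagen, which do not overlap. Such a gap was seen for 6 of the 40 members, namely Cdc6, Cdc45, Cdt1, Pole, Chaf1a and Rad54l. In each of them bovine collagen lay wholly above media. Over all genes tested, 4.12% had bovine collagen wholly below media and 4.66% wholly above. The log2 change of Rad54l was 0.20 (adjusted p = 1 in edgeR's quasi-likelihood test). The 40 estimates ran from -0.14 (Dut) to 0.20, with a median of 0.014 beside -0.0063 for all genes. Their 95% intervals all lay between -0.35 and 0.37. Changes in the members of the size of Rrm2, Gins1 or Pcna in rat tail collagen therefore lie outside every interval seen in bovine collagen, while changes within an interval cannot be told from 0.

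The gels were also compared directly, in the same fit and with the same rat tail collagen libraries. In rat tail against bovine collagen 34 members were lower and 0 higher, where 26.4% of all genes tested were lower and 28.4% higher, and the median was -0.57 beside 0.0026 for all genes. The difference between the gels was thus itself past the threshold for those 34. The genes with the largest differences were Rrm2 (-1.40, SE 0.086, adjusted p = 2.02e-07), Gins1 (-1.21), Tyms (-1.09) and Pclaf (-1.09). Mcm6 (-0.35, adjusted p = 0.00877) and E2f1 (-0.27, adjusted p = 0.0296) passed here, beside -0.23 and -0.12 against media, and Chaf1a (0.07, adjusted p = 0.501) did not. The call of E2f1 was lost without bovine collagen library 1 (0.0839) or 2 (0.0694) or rat tail collagen library 1 (0.125), with a filter at 1 CPM (0.0675) and with all 12 libraries in 1 fit (0.0553). Fen1 (-0.32, adjusted p = 0.0136) was lost without bovine collagen library 1 (0.0522) or rat tail collagen library 1 (0.0633), and Mcm2 (-0.30, adjusted p = 0.0239) without bovine collagen library 1 (0.0804) or 2 (0.0706) or rat tail collagen library 1 (0.0841) or 2 (0.0685). Scaled by library totals, the median of all genes moved to 0.15, the calls over all genes went from 5118 lower and 5499 higher to 3221 and 6329, and 24 members were lower, with 10 calls lost and none gained.

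Other genes of the cell cycle were counted in the same way in rat tail collagen against media, where 28.7% of all genes tested were lower and 29.7% higher. Of 23 further genes of origin recognition, licensing control and firing 14 were lower and 1 higher, with a median of -0.39. They include the S phase cyclin Ccna2 (-1.59), Dbf4, the activator of the kinase CDC7 (-0.87), and the fork protection factors Clspn (-1.17) and Timeless (-0.94). Of 18 other replisome subunits 12 were lower and 1 higher (median -0.37), among them Rnaseh2b (-1.15), Pole2 (-0.98), Rfc1 (-0.67) and Pold2 (-1.31). Without the 3 libraries rich in rRNA 7 of the 18 were lower and 0 higher. Both lists thus held more lower than higher calls, with 8 and 5 genes not called.

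Of 14 further enzymes of deoxynucleotides and thymidylate 7 were lower and 1 higher (0 to 2 higher over the alternatives), with a median of -0.33. The salvage kinase Dck changed by -1.07 and the p53-regulated reductase subunit Rrm2b by -0.80. Nme2 changed by -1.23, at low mean levels of 2.00 CPM in that gel and 4.67 in media. Of 17 genes of de novo purine and pyrimidine synthesis 8 were lower and 0 higher, with a median of -0.20, among them Prps2 (-0.76), Ctps2 and Gmps (-0.53 each) and Impdh2 (-0.74). In that list 9 genes were not called, and without the 3 libraries rich in rRNA 5 were lower. Of 9 genes of replication-coupled chromatin and methylation 7 were lower and 0 higher (median -0.35), led by Uhrf1 (-0.68), which recruits the maintenance methyltransferase, and Hells (-0.65), with the histone chaperones Asf1a (-0.50) and Asf1b (-0.46), and 4 were lower without those libraries.

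The list of the E2F and pocket protein family, which also counts Skp2 and Fbxo5 from outside that family, split. Of 13 genes 7 were lower and 2 higher, with a median of -0.26: the APC/C inhibitor Fbxo5 (-1.42), the pocket protein Rbl1 (-1.13) and the repressor E2f8 (-1.28) were lower, whereas Tfdp2, an E2F dimer partner, was higher by 1.76 (SE 0.11, adjusted p = 1.95e-07), with mean levels of 254 CPM in that gel and 74.8 in media. Without those 3 libraries 4 of the 13 were lower and 2 higher. Of 16 genes of S phase repair and checkpoint 14 were lower and 1 higher (median -0.51). Bard1, the partner of Brca1, changed by -1.26, the kinase Atr by -0.90 and the helicase Brip1 by -0.89, while the mismatch repair gene Msh6 was higher by 0.69 (SE 0.065, adjusted p = 4.05e-06). All 22 genes of the G2 and mitosis list were lower, with a median of -1.03 beside -0.60 for the 40 S phase members. Cdc20 (-1.26), Birc5 (-1.46), Ube2c (-1.37) and Ccnb2 (-1.56) had the smallest adjusted p. In bovine collagen against media no gene of these 8 lists was called.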

How the data were processed

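RNA of 12 libraries was sequenced after rRNA depletion, per the labels' protocols. The authors deposited raw counts of reads per gene symbol in 1 table, and the submitters' processing notes name HISAT2, featureCounts, SAMtools, Picard, FastQC and MultiQC with GRCm38 and mm10. Not given in the sources used here are versions, annotation and strand setting. Genes kept by filterByExpr were scaled with TMM factors and tested in edgeR 4.0.16 (R 4.3.3) by its quasi-likelihood F test, with Benjamini-Hochberg adjustment across every gene of the fit and calls under an adjusted p of 0.05. The 9 day 4 libraries shared 1 fit, and comparisons with naive cells used the 6 libraries concerned. CPM are on 1 TMM scale over 12 libraries. SE and 95% intervals are of the log2 fold change. Exon lengths and gene positions are from GENCODE M21 (GRCm38).

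Alternatives were other scalings, filters, fits and tools (limma 3.58.1 with voom, DESeq2 1.42.0), a replicate block, removal of rRNA genes, GC and length offsets, and leaving out libraries. The members and the other lists were chosen with earlier results of these data known. All members were named by role, and of each other list up to 4 genes with the smallest adjusted p in rat tail collagen against media. The rule also allowed up to 2 genes with the largest adjusted p, which are given only as counts. A gene that the rule would name is not reported here. Replicate numbers were not taken to pair libraries: same-numbered libraries did not all deviate together by a correlation over 0.1. Of the list genes, 2 were not matched by symbol.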

Additional observations from a re-analysis of the deposited data

How the results depend on the processing

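Both comparisons with naive cells called all 40 members higher, and bovine collagen against media called 0, in every alternative run. Against media, 22 (without the 3 libraries of highest rRNA share) to 35 members (GC and length offsets) were lower in rat tail collagen, and 30 to 34 on leaving out 1 library. Against bovine collagen 23 (without those 3 libraries) to 37 (no filter) were lower, and 31 to 35 on leaving out 1 library. The 1 member higher against media, Chaf1a, became 0 with library totals, with no filter, with only the 6 libraries of the comparison, with GC and length offsets and without the 3 libraries of highest rRNA share, and the count ran from 0 to 1 on leaving out 1 library. The cause was not tested, except that the settings with 6 libraries or with libraries left out use fewer samples. Some uncalled members changed sign: Tk1 was at 0.0084 against media without the 3 libraries of highest rRNA share and at 0.019 against bovine collagen with library totals, Exo1 at 0.045 there with library totals, and Chaf1a at -0.0495 there with GC and length offsets. With the replicate number as a block, 33 members were lower against media (Mcm6 gained at an adjusted p of 0.0444) and 35 against bovine collagen (Lig1 gained, 0.0467). Between rat tail collagen and media, and between rat tail collagen and naive cells, each library correlated best with that of its own number, a hint from the data and not the design, which did not hold between the other groups. Between media and bovine collagen the same-numbered libraries had correlations of 0.373, 0.0290 and 0.444, and bovine collagen library 2 alone correlated best with another number (media library 1, 0.0611). Without the 3 libraries of highest rRNA share, media against naive cells has no value of its own, since none of its libraries is left out. Changes within the 95% intervals given cannot be told from 0 with 3 libraries a group.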
